A study of Oryzias latipes with 18 samples.

Results

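The basic helix-loop-helix (bHLH) genes of the medaka Oryzias latipes were described by the accessible DNA elements around them. The study's list of 1646 transcription factor (TF) genes holds 129 genes of the bHLH family, and 127 of them were taken here, leaving out the genes IGDB20753 and IGDB19761. The other 1517 TF genes belong to other families and serve as the background. Accessible DNA was measured by ATAC-seq, in which a transposase cuts open chromatin, in whole embryos at stages 11, 15, 19, 25, 29, 32, 36, 38 and 40. All embryos came from crosses of the strains Qurt and d-rR-Tg(olvas-GFP) and were kept at 28 °C, with 2 replicates per stage and 18 libraries in all. The deposited list of 149539 elements pools these libraries, so it gives no level per stage or replicate, and no difference between stages and no replicate error can be given. The depth of each library is not known from this list.

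bHLH proteins bind E-box sequences as dimers, in which the helix-loop-helix part joins the partners and the basic part touches DNA. E proteins are broadly expressed partners, tissue factors such as MyoD, Neurogenin and Twist pair with them, Id proteins lack the basic part and hold E proteins away from DNA, and the Hes and Hey proteins repress, often downstream of Notch. Other members carry a leucine zipper next to the helix-loop-helix, as in the Myc and Max network, or a PAS domain, as in the circadian and hypoxia factors.

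For each gene, the elements with a midpoint within 50 kb of the annotated transcription start site (TSS) were collected. Coordinates are those of the deposited list on the Hd-rR reference genome, counted from 1. Each element has a score on the −log10 scale of the q value given by the peak caller, and a number of merged peaks, from 1 to 29. Since peaks were called per stage and then merged over 9 stages, 9 merged peaks are as many as there were stages, but 1 stage can give several peaks, so the number is not a count of stages. The 127 windows held 3286 different elements in 3553 pairings of a gene with an element. Of these elements, 267 lay in the windows of 2 members and none in more. No test was made, since the list holds 1 pooled value per element, and genes that share elements are not independent. The values below are descriptions of these genes.

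A bHLH gene had a median of 28 elements within 50 kb (95% order-statistic interval 26 to 29), with quartiles at 24 and 33 and a range from 5 to 51. The other TF genes had a median of 24, with quartiles at 16 and 32 and a range from 0 to 64. The middle of the bHLH genes was thus 4 elements higher, while both ranges overlapped almost wholly. Genes with 40 or more elements made up 9.45% of the members (12 of 127), near the 9.95% of the other TF genes. The gap was thus seen at the lower quartile and not among the genes with the most elements. The background contains 578 zf-C2H2 zinc finger genes with a median of 19, and without them the other TF genes had a median of 26. Homeobox genes had a median of 29, Fork_head genes 28.5, bZIP genes 28 and HMG genes 24. The bHLH genes were thus in the range of the homeobox, fork head and bZIP families, and their windows held as many other protein-coding genes as those of other TF genes, with a median of 4 in both.

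**Figure D1:**
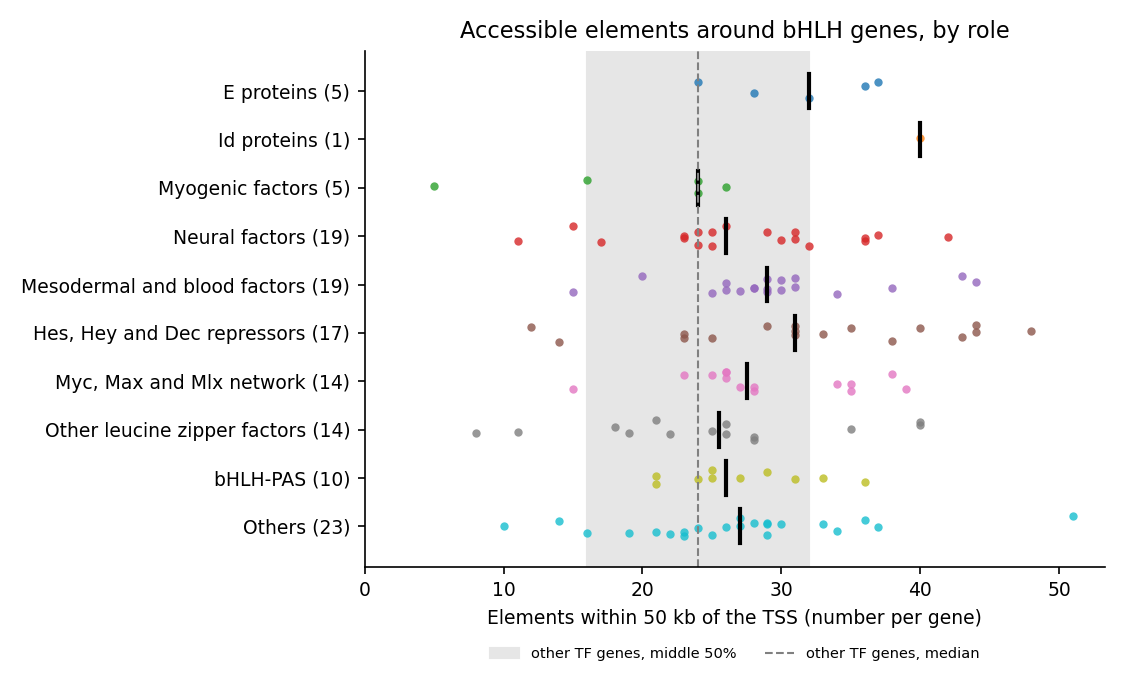
Elements within 50 kb of the TSS (number per gene, x axis) for the 127 bHLH genes in role groups, with group size in parentheses. Each point is a gene, black bars are group medians, and the dashed line and grey band are the median (24) and the quartiles (16 and 32) of the other 1517 TF genes. The Hes, Hey and Dec repressors reach from 12 to 48 and have a median of 31, and the gene with the most elements, with 51, is among the others.

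An element lay within 1 kb of the TSS in 118 of the 127 bHLH genes, or 92.9% (95% Wilson interval 87.1 to 96.2%, which covers counting error only). Over the other TF genes the share was 83.3%, and without the zf-C2H2 genes (74.4%) it was 88.8%. In the Homeobox genes it was 93.4%, in the Fork_head genes 91.9%, in the HMG genes 90.5% and in the bZIP genes 88.8%. The bHLH genes were thus in the range of these families. The strongest such element, called the TSS element here, had a median score of 141 (interval 106 to 168) in the members. In the other TF genes it was 115, and 120 without the zf-C2H2 genes. Among single families this median was higher in bZIP (216) and HMG genes (186) and lower in Fork_head (74.6) and Homeobox genes (68.4). A score of at least 500 at the TSS, which 99.4% of all elements do not reach, was found in 16 members (12.6%) beside 5.08% of the other TF genes. This share was not taken for single families or without the zf-C2H2 genes. The upper quartile of the TSS score was 270 in the members and 240 in the other TF genes, or 254 without the zf-C2H2 genes. By family it was 407 in bZIP, 296 in HMG, 175 in Fork_head and 150 in Homeobox genes. The TSS element had been merged from 9 or more peaks in 61 members (48.0%), which is near the 46.7% of the other TF genes. These shares are over all genes, also those without a TSS element. Among genes with one it was 61 of 118 members and 709 of 1264 other TF genes, so the members were then lower. Over all genes of a family the share was 71.2% in bZIP, 63.5% in HMG, 37.1% in Fork_head and 33.9% in Homeobox genes.

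Elements were densest next to the TSS. In the first 1 kb upstream of it the bHLH genes had 0.819 elements per gene, compared with 0.583 for the other TF genes, and in the first 1 kb downstream they had 0.819 and 0.811. Between 1 and 5 kb downstream the values were 0.344 and 0.263 elements per gene per kb, and between 25 and 50 kb they were 0.249 and 0.229 on this side. The bHLH genes were thus above the other TF genes in each of the 10 distance bins, by little in the first 1 kb downstream and by the widest margin in the first 1 kb upstream. Densities were not taken for single families or without the zf-C2H2 genes. Around the members, 49.0% of the elements lay upstream of the TSS and 14.6% within 5 kb of it, beside 48.0% and 14.3% in the other TF genes. In all, 57 members had more elements upstream, 62 had more downstream and 8 had equal numbers.

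**Figure D2:**
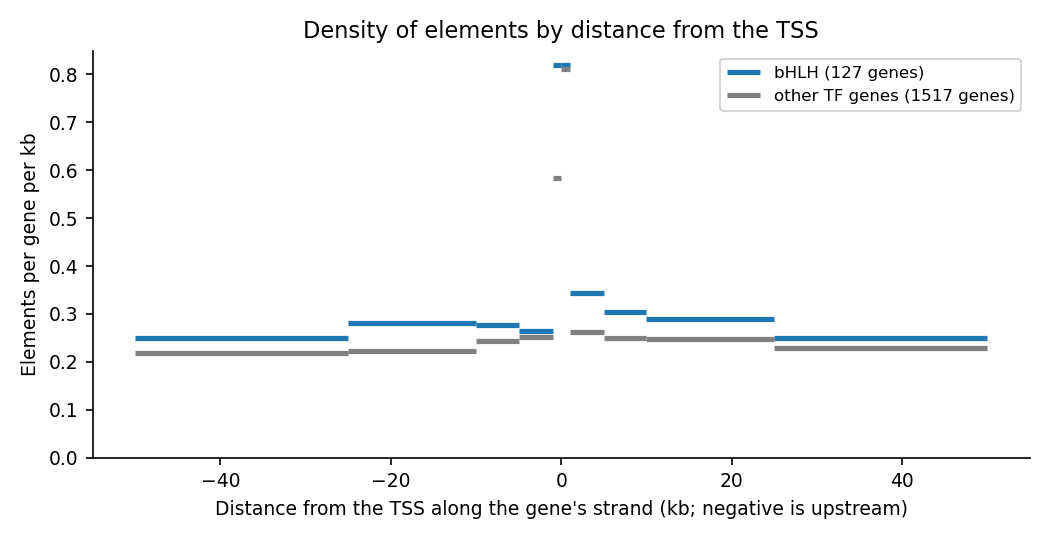
Elements per gene per kb (y axis) against the distance from the TSS along the gene's strand (kb, x axis, negative upstream) in 10 bins, for the 127 bHLH genes (blue) and the other 1517 TF genes (grey). Each bar spans its bin. Both sets peak within 1 kb of the TSS, where the upstream values were 0.819 and 0.583.

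The number of merged peaks went with the score and with the place of an element. Among the 3286 elements, 821 (25%) came from 1 peak and had a median score of 14.2. From 9 peaks came 421 (12.8%), with a median score of 169. Over all elements of the list these shares were 27.7% and 10.2%. Of the pairings of a member with an element, 15.1% had an element from 9 or more peaks, near the 15.7% of the other TF genes. The 84 elements merged from 10 or more peaks had a median score of 166 but were wider, at a median of 696 bp compared with 284 bp for those of 9 peaks. Of the elements within 1 kb of a member's TSS, 38.5% came from 9 or more peaks, and of those within 1 kb of an end of another protein-coding gene, 34.1%. Only 8.08% of the remaining 2400 elements did. The median scores of these 3 kinds of elements were 76.9, 49.1 and 32.3. Elements of many merged peaks were therefore more frequent at gene ends than away from them, in the members' windows. This was not particular to the members at the TSS. Around the other TF genes such elements made up 39.1% in the first 1 kb upstream and 41.1% in the first 1 kb downstream. In their bins farther out the shares were 12.1 to 16.6%. The share at ends of other genes was not taken for the other TF genes. Across the 127 members, the number of elements from 9 or more peaks followed the number of other protein-coding genes in the window (Pearson r = 0.453, Spearman rho = 0.476), while the number of all elements did not (0.0278 and 0.0396). These correlations are across genes, which share elements and are not replicates. The 3 members on unplaced scaffolds entered with 0 other genes, since no protein-coding RefSeq gene was given for their scaffolds.

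Role groups were set by the stem of the gene name, so the label of a group need not describe each of its genes. The 23 unnamed genes could not be placed in this way, and some may belong to a named group. By role group, the median TSS score ran from 56.5 in the myogenic factors to 327 in the E proteins, and 531 was the score of the single Id gene. Both ends of this range rest on few genes. Only 3 of the 5 myogenic factors had a TSS element, and the 5 E proteins ranged from 38.8 to 699. The neural factors had a median of 75.3, the mesodermal and blood factors 96.7, the unnamed genes 107, the bHLH-PAS genes 152, the other leucine zipper factors 153, the Hes, Hey and Dec repressors 169 and the Myc, Max and Mlx network 236. The points of the groups overlapped widely. A TSS element of 9 or more peaks was found in 48.0% of all members and 46.7% of the other TF genes. By group it was found in 4 of the 19 neural factors, 5 of the 19 mesodermal and blood factors and 1 of the 5 myogenic factors. It was found in 8 of the 17 Hes, Hey and Dec repressors, 9 of the 23 unnamed genes and the single Id gene. In the Myc, Max and Mlx network 10 of the 14 genes had one, as did 11 of the 14 other leucine zipper factors. So did 8 of the 10 bHLH-PAS genes and 4 of the 5 E proteins. Genes without any TSS element are included in these group sizes. The groups also differed in gene length. The medians were 1981 bp in the neural factors, 1487 bp in the mesodermal and blood factors and 3923 bp in the myogenic factors. The Hes, Hey and Dec repressors had 2838 bp, the unnamed genes 3010 bp and the single Id gene 1324 bp. The Myc, Max and Mlx network had 11716 bp and the other leucine zipper factors 12209 bp. The bHLH-PAS genes had 18632 bp and the E proteins 23495 bp. The part of gene length in these values was not tested. Expression was not measured here.

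**Figure D3:**
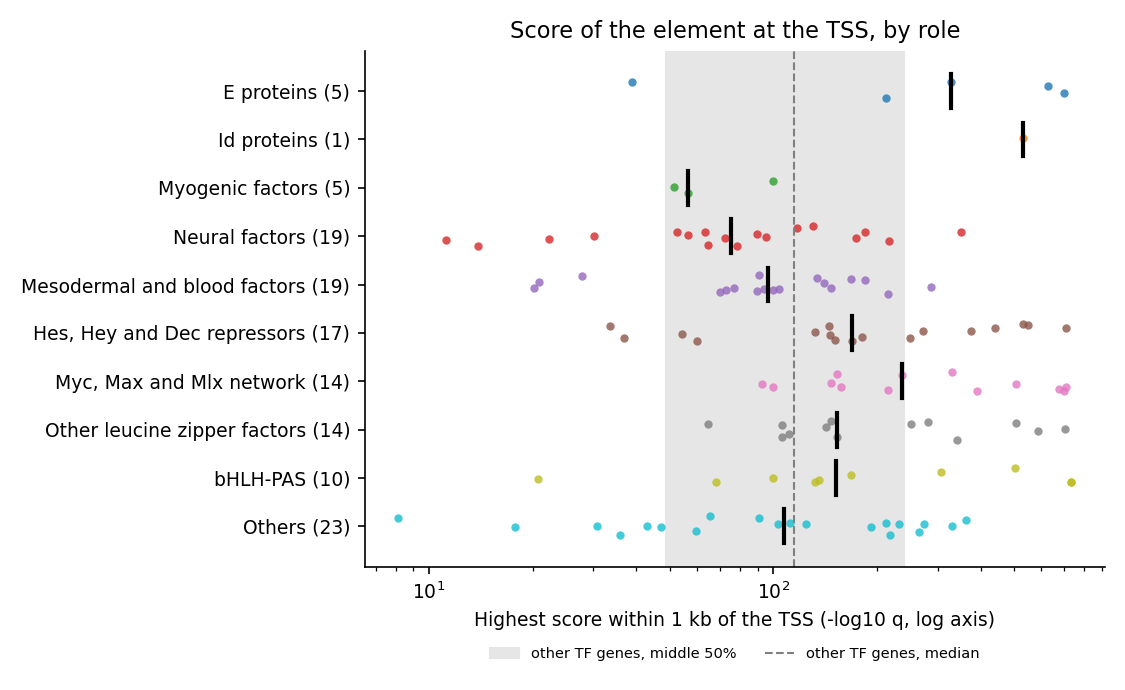
Score of the TSS element (−log10 q, log x axis) for the bHLH genes with an element within 1 kb of the TSS, in role groups, with all group members counted in parentheses. Each point is a gene, black bars are group medians, and the dashed line and grey band are the median (115) and the middle 50% of the other TF genes. The medians of the neural factors (75.3), the mesodermal and blood factors (96.7) and the myogenic factors (56.5, from 3 genes) lie below the line. Those of the Myc, Max and Mlx network (236) and the E proteins (327, from 5 genes) lie above it.

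The E proteins, the common partners of the tissue factors, were represented by 5 genes with a median of 32 elements. The gene tcf12 on chromosome 6 had 37 elements and its namesake on chromosome 3 had 36. Their TSS scores were 327 and 629. In tcf3b the TSS element scored 699 and was the strongest of 28 elements, while tcf3 had a TSS score of 213 among 32 elements. The gene tcf4 differed from the others, with 24 elements, a TSS score of 38.8 from 5 peaks and 1 element of 9 or more peaks in the window. It is also the longest of them at 212 kb, and no other protein-coding gene lay in its window. The only member with the name of an Id gene, id2, had 40 elements, and a run of high scores led up to its start. Elements scoring 232, 254 and 531, each of 9 peaks, lay 2.41, 1.21 and 0.08 kb upstream of its TSS, the last from 11296823 to 11297046 on chromosome 22. Of its other 37 elements none came from 9 or more peaks.

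The 17 Hes, Hey and Dec repressors had a median of 31 elements and included 5 of the 12 members with 40 or more. Both hes2 genes are among these 5, and their windows share 39 elements, so they are not separate cases. The share of genes with 40 or more was 9.45% over all members and 9.95% over the other TF genes. The Notch target hes1, which keeps neural progenitors from differentiating, had 48 elements, 24 on each side. Its TSS element scored 249, and 3 elements farther away scored higher. The strongest, with 349 from 8 peaks, lay 26.1 kb upstream of the TSS, from 12760460 to 12761084 on chromosome 4, and those of 275 and 254 lay 18.4 and 26.3 kb downstream. No other protein-coding gene of RefSeq reached into this window, and 4 of the 48 elements came from 9 or more peaks. The window of hes4 held 44 elements, and here the TSS element was the strongest with a score of 531. The gene hey1 on chromosome 11 had 40 elements with a TSS score of 374, and the hey1 gene on chromosome 16 had 31 with a score of 169. Among the circadian repressors of the Dec type, dec1b had one of the highest TSS scores of the family, 706, with 31 elements. At the low end, hes3 had 12 elements, of which 10 lay within 5 kb of its TSS.

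A group of Hes genes lay together on chromosome 7. The hes2 genes IGDB08920 and IGDB08921 had their TSS 12.4 kb apart, and 39 elements lay within 50 kb of both, which were 90.7% of the 43 of the first and 88.6% of the 44 of the second. The former had a TSS score of 151 and the latter 60.2. Many of these elements were weak, since 16 of the 43 and 18 of the 44 came from a single peak, and each window held 1 element of 9 or more peaks. In the same region the hes5/heyl gene IGDB24263 and IGDB08918, 7.62 kb apart, shared 25 elements, which was every element of the former. Their TSS scores were 272 and 274. The strongest element of both windows, with 379, lay upstream of both, 2.1 kb from the TSS of IGDB24263 and 9.72 kb from that of IGDB08918. The 2 genes named hes6 had the highest score of their windows near an end of another gene. The score of 969 in the window of hes6 on chromosome 17 (IGDB16843), the highest around any member, lay 37.0 kb downstream of its TSS and 115 bp from an end of LOC101161338. The hes6 gene on chromosome 13 (IGDB14120) and its neighbour IGDB02312, 5.94 kb apart, shared 27 elements. Among them was an element scoring 877, from 31728957 to 31729304, which lay 89 bp from an end of the circadian gene per2. The TSS scores of these neighbours were 441 and 362.

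The 4 classical muscle factors had fewer elements than the median of 28 in the members. The determination genes myod1 on chromosome 6 and myf5 had 24 elements each, myf6 had 26, and myog, which acts in differentiation, had 16. Of these 4, only myog was below the lower quartile of the members, 24, which was also the median of the other TF genes. The TSS element of myod1 scored 100 and came from 9 peaks, that of myf5 scored 51.4 from 6 peaks, and that of myog scored 56.5 from 4 peaks. All 3 scores were below the median of the family, and myf6 had no element within 1 kb, the closest lying 4.09 kb downstream with a score of 40.1. In myod1 the strongest element, with 210 from 8 peaks, lay 21.1 kb upstream, from 6456315 to 6456895 on chromosome 6, and another of 192 lay 41.4 kb downstream. The genes myf5 and myf6 lay 9.91 kb apart on chromosome 23 in the same orientation and shared 22 elements, 91.7% of those of myf5 and 84.6% of those of myf6. Most of them lay upstream, with 18 of the 24 of myf5 and 19 of the 26 of myf6. The scores in this upstream stretch were moderate, and the highest more than 1 kb from ends of other genes was 98.3. This element lay 48.4 kb upstream of myf5 and 38.4 kb upstream of myf6, and 1157 bp from an end of rps16. The score of 722 in the window of myog lay 34.7 kb upstream, 71 bp from an end of another gene. A second gene that carries the name myod1, IGDB07167 near the start of chromosome 3, had the fewest elements of all members. It had 5, with scores from 12.5 to 21, all downstream and none closer than 31.7 kb.

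**Figure D4:**
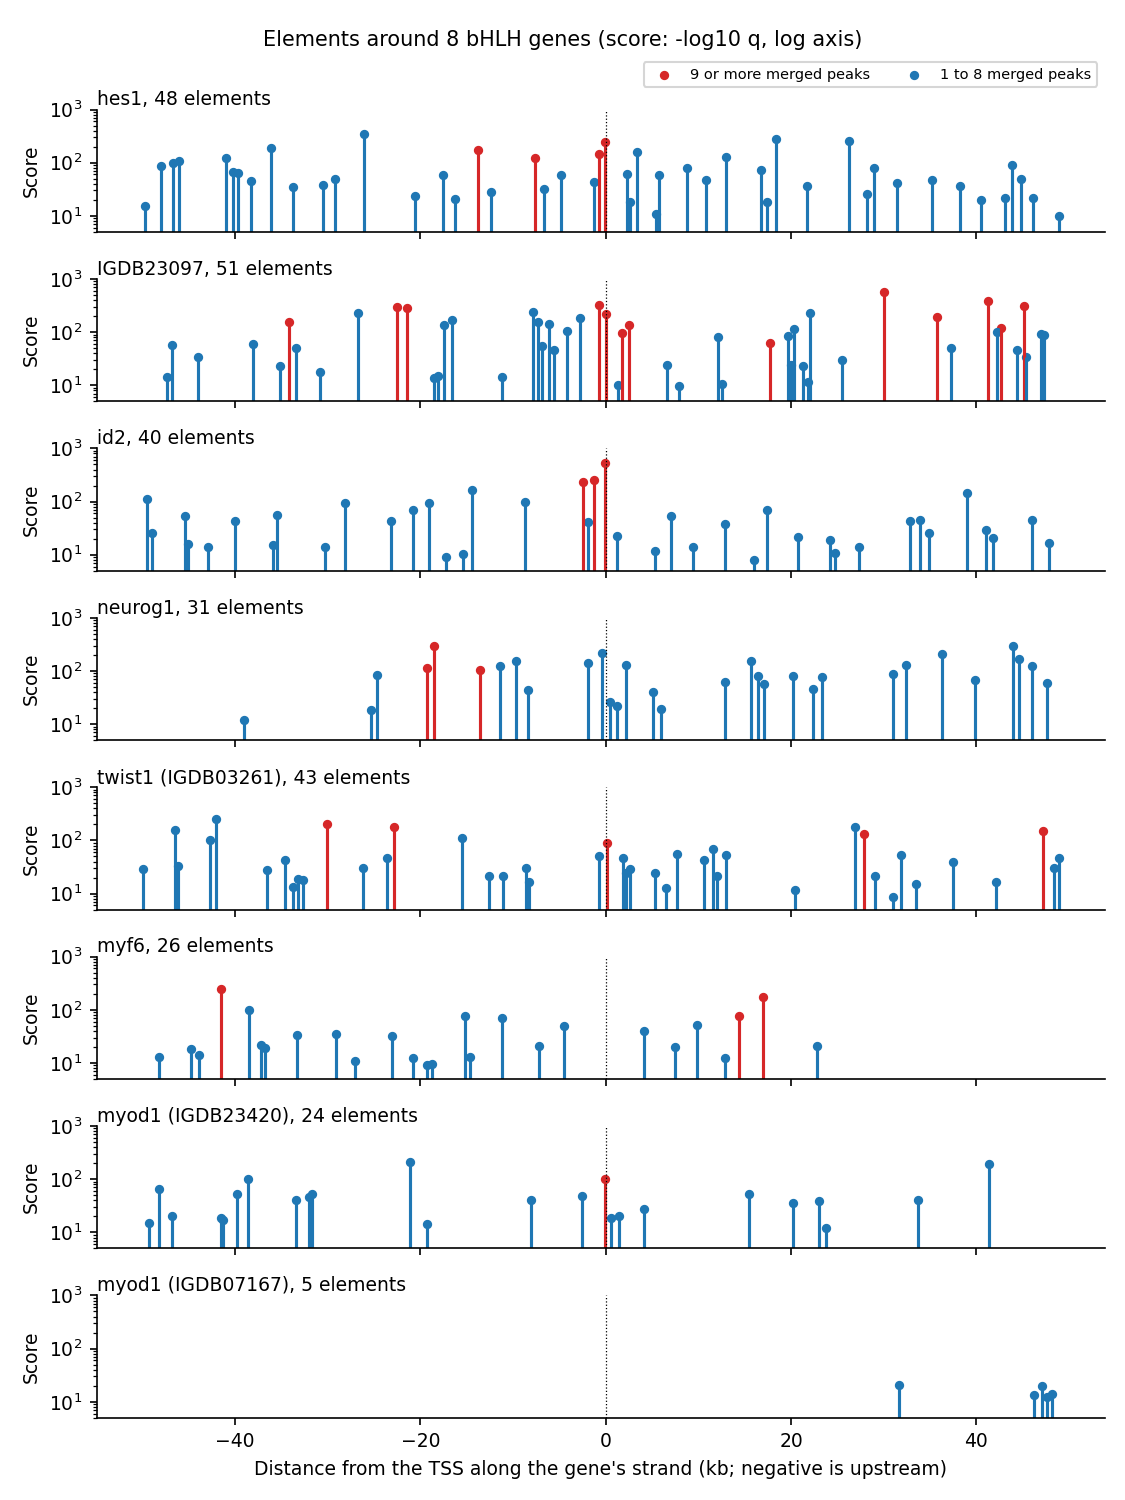
Elements around 8 bHLH genes, plotted as lines at their distance from the TSS (kb, x axis, negative upstream) with their score (−log10 q, log y axis). Red lines are elements merged from 9 or more peaks and blue lines those of fewer. In hes1 and twist1 elements are spread over the whole window, in id2 the red lines stand in the last 2.41 kb before the TSS, in myf6 no line stands at the TSS, and IGDB07167 has 5 weak elements at one side.

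Of the neural factors, 19 genes had a median of 26 elements and a median TSS score of 75.3. Only neurod1, which acts in neuronal differentiation, had a TSS score above 300 (351). The most elements, 42, lay around neurod4 on chromosome 7, which had a TSS score of 117 and an element scoring 520 at 41.7 kb upstream. Around neurog1, which specifies sensory neurons, 31 elements had a median score of 84.4, and only 2 of them came from a single peak. Its TSS element scored 216, and the strongest element away from other gene ends, with 289 from 6 peaks, lay 43.9 kb downstream. The hair cell factor atoh1 had 25 elements and a TSS score of 52.5, below the 123 of an element 1.47 kb upstream. For ptf1a, which acts in the pancreas and in inhibitory neurons, 17 elements were found, of which 13 lay downstream and none came from 9 or more peaks. The gene bhlha9, placed in this group by the stem of its name, had the fewest with 11. The genes olig2 and olig1, which act in motor neurons and oligodendrocytes, lay 22.3 kb apart on chromosome 21 and shared 25 elements, 78.1% of the 32 of olig2 and 86.2% of the 29 of olig1. The TSS element of olig2 scored 174, and the strongest element of both windows, with 315 from 8 peaks, lay 8.22 kb upstream of olig2 and 30.5 kb upstream of olig1. No element lay within 1 kb of the TSS of olig1, but a weak one of 30.9 lay 1.01 kb downstream.

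The mesodermal and blood factors were 19 genes with a median of 29 elements. The gene tcf21, known from the epicardium and from mesenchyme in mouse, had 44, of which 29 lay downstream, while its TSS element scored only 72.8 from 3 peaks. The genes named twist1, which act in mesenchyme and cranial neural crest, had 43 elements on chromosome 16 and 38 on chromosome 11. Their TSS scores of 90.7 and 93.8 were nearly equal. The strongest element around the former, with 253 from 6 peaks, lay 42.0 kb upstream of the TSS, from 15940723 to 15941105. The gene twist2 had 26 elements and shared 20 of them with IGDB06020, 18.0 kb away on chromosome 21. The heart and fin factor hand2 had 20 elements, none scoring above its TSS element at 89.8, which was the lowest window maximum of this group. The presomitic factor msgn1 stood in a gene-rich stretch with 10 other protein-coding genes, and 16 of its 27 elements lay within 1 kb of an end of such a gene. By contrast, mesp, which acts in early mesoderm, had 31 elements with a median score of 17.8, and its TSS element scored 27.8 from 2 peaks. Its neighbour IGDB07489, 5.97 kb away, shared 30 elements with it and had a TSS score of 17.8. Genes with the name of the blood factor tal1 lay on chromosomes 1 and 17 and had 29 and 28 elements. The TSS scores were 286 from 7 peaks and 104 from 9 peaks, so the higher score came from fewer peaks. The oocyte factor figla had the fewest elements of this group with 15.

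In the Myc, Max and Mlx network, in which Max is the partner of Myc and of its antagonists, 14 genes had a median of 27.5 elements and a median TSS score of 236. The gene myc had 38 elements with a TSS score of 147, and the strongest, with 252, lay 27.5 kb downstream. The antagonist mxd4 had 39 elements and a TSS score of 706. An element of mxi1 on chromosome 1 scored 883 from 10 peaks and lay 1.56 kb downstream of the annotated TSS, inside the gene, from 36595938 to 36596389, while the element within 1 kb scored 215. The antagonist mxd3 and the hair cell factor paralog atoh1b lay 30.3 kb apart on chromosome 10 and shared 21 elements. One of them, with 496 from 17 peaks, was the strongest of both windows and lay 98 bp from an end of fam193b. The TSS score was 153 for mxd3 and 11.2 for atoh1b. The gene c-myc17 had 15 elements and none within 1 kb of its listed TSS, but an element of 161 lay within 1 kb of the corresponding end of the RefSeq gene, 3.78 kb away.

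The other leucine zipper factors were 14 genes with a median of 25.5 elements, and the strongest TSS element among them belonged to srebf2, a regulator of sterol synthesis, with 701. The gene usf3 had 40 elements, of which 29 lay downstream. The gene tfe3 on chromosome 7, which acts on lysosomal genes, had 8 elements, fewer than any member other than IGDB07167, but a TSS score of 587. The melanocyte factor mitfa had 11 elements and none within 1 kb of its TSS, the closest lying 5.7 kb downstream with a score of 11.3, whereas mitfb had 28 elements and a TSS score of 153. Of the 10 bHLH-PAS genes, the circadian gene arntl1a had the highest TSS score of the family with 732 from 13 peaks, from 425172 to 425778 on chromosome 6. The coactivator ncoa3 followed with 730 and had 31 elements with a median score of 100. The gene clocka, whose product pairs with that of arntl1a in the circadian clock, had a TSS score of 306 from 21 peaks among 21 elements. The TSS score of sim1, which acts in the hypothalamus, was 503 among 33 elements. That of arnt, a partner of several but not all factors of this group, was 132 among 36. The gene with the most elements of this group, arnt, was thus not among those with high scores at the TSS.

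The remaining 23 genes carry no name and are given by their identifiers. They had from 10 to 51 elements with a median of 27, and a median TSS score of 107. The 3 of them on unplaced scaffolds, IGDB10548, IGDB10507 and IGDB10838, had 25, 19 and 16 elements. The TSS of IGDB10838 is at 19447, so its 50 kb window runs past the start of its scaffold and is not a full window. IGDB23097 on chromosome 5 had the most elements of all members, 51, and 13 of them came from 9 or more peaks. Their median score was 84.4, and only 5 came from a single peak. The strongest, with 568, spanned 25987340 to 25987709 and lay 30.1 kb downstream of the TSS, and elements of 330 and 223 lay 0.717 and 0.003 kb from the TSS. IGDB03396 on chromosome 16 had 10 elements, all upstream. On chromosome 10, IGDB00983 lies inside the listed model of hes7 (IGDB00981), which spans 27.6 kb and overlaps genes of other families. The best RefSeq match of this model was pfdn6, and RefSeq holds hes7 as a separate gene. The nearest end of that gene lay 4097 bp from an element 10.2 kb downstream of the listed start. The listed start is thus not at this end of hes7 and may not be that of hes7. The TSS score of 54.2 counted for hes7 in its role group was taken at the listed start. IGDB00983 and IGDB00981 shared 27 elements, 93.1% of the 29 of each.

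The strongest element within 50 kb had a median score of 341 in the members (interval 302 to 390) and 299 in the other TF genes. Without the zf-C2H2 genes (252) the other TF genes had 327, which is closer to the value of the members. The median was 442 in bZIP, 312 in HMG, 305 in Fork_head and 290 in Homeobox genes. The strongest element was the TSS element in 28 of the 127 members (22%), beside 18.3% of the other TF genes. This share was 30.2% in HMG, 28.7% in bZIP, 11.3% in Fork_head and 8.37% in Homeobox genes. In 45 others (35.4%, beside 39.9% of the other TF genes) it lay within 1 kb of an end of another protein-coding gene, and in 54 it lay elsewhere, 7 of these inside the member's own gene. Both shares were near those of the other TF genes, and no element is tied to its target gene by these data. When elements near ends of other genes were left out, the median strongest scores were 255 in the members and 216 in the other TF genes. Without the zf-C2H2 genes the latter was 229.

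No element lay within 1 kb of the listed TSS in 9 of the 127 members. Beside myf6, the myod1 gene IGDB07167, mitfa, olig1 and c-myc17 these were tcf24, IGDB01321, IGDB06020 and IGDB09035. For IGDB01321 an element of 239, and for IGDB06020 one of 19.3, lay within 1 kb of the corresponding end of the RefSeq gene, 2.1 and 2.92 kb from the listed TSS. In tcf24 the closest element, 2.07 kb downstream, scored 526 from 9 peaks and was the strongest of its window. For tcf24, myf6, olig1, mitfa and IGDB07167 the RefSeq end lay within 0.372 kb of the listed TSS, and no element lay near it either. In 3 of the 9 members the 2 gene models thus placed this end differently, and an element lay within 1 kb of the RefSeq end. The RefSeq genes used here gave no strand, so this end need not be a start. For IGDB06020 the element was weak.

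Genes that share a name, after removal of a final a or b, formed 22 pairs, with myc and c-myc17 counted as 1 of them. A shared name does not show which genes arose by duplication. In some pairs both names were TF names listed beside binding motifs, so they need not mean the same gene. The numbers of elements differed by 5 or fewer in 10 pairs and by 10 or more in 8, with a median difference of 8. Members without a shared name were not compared in this way, so these differences do not show likeness or divergence within pairs. Over all 127 members the number of elements had a standard deviation of 8.36. The close hes2 pair, with 44 and 43, has overlapping windows that share 39 elements. The genes atoh1 and atoh1b had 25 elements each, the twist3 genes 29 each and the mxi1 genes 35 each. At the other end myc and c-myc17 had 38 and 15, the tfap4 genes 40 and 21, the neurod4 genes 42 and 23, and the myod1 genes 24 and 5. In the 19 pairs in which both genes had a TSS element, the higher score was a median of 2.06 times the lower. The tfe3 genes had 22 and 8 elements but TSS scores of 106 and 587, so the gene with fewer elements had the higher score. Equal numbers of elements also came with unequal scores, as for atoh1b and atoh1 with 11.2 and 52.5.

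**Figure D5:**
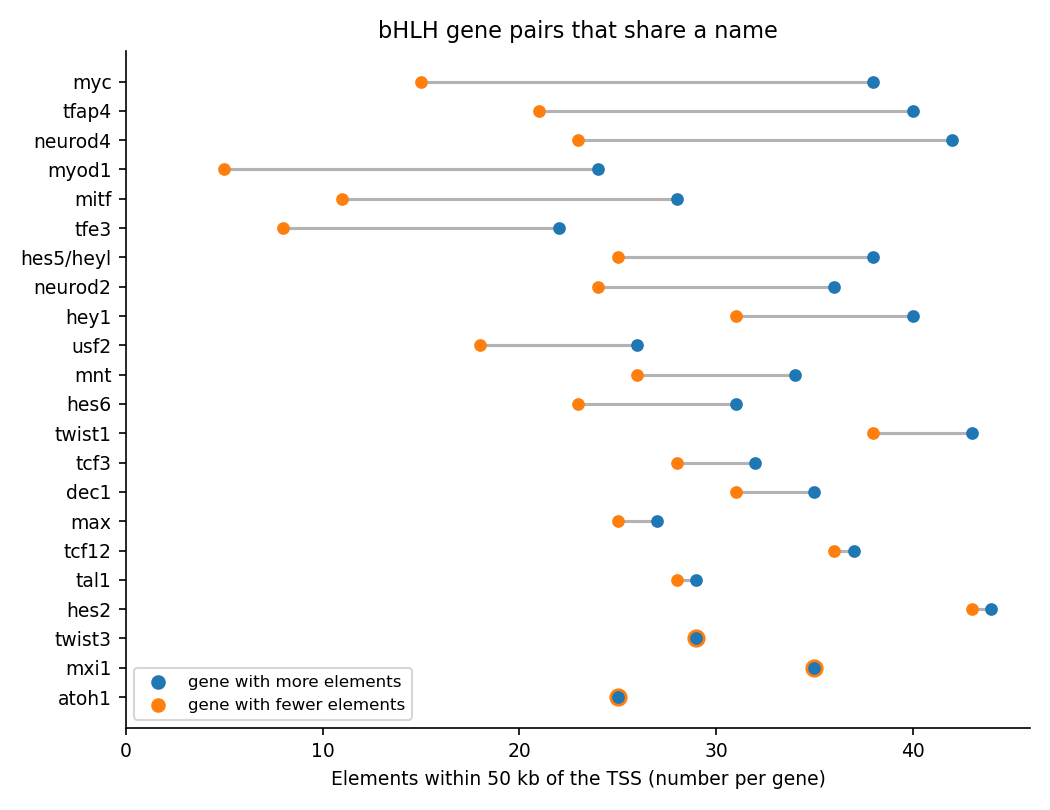
Elements within 50 kb of the TSS (number per gene, x axis) for the 22 pairs of bHLH genes that share a name (y axis), ordered by their difference. Blue points are the gene with more elements and orange points the gene with fewer, joined by a line. The pairs atoh1, mxi1 and twist3 have equal numbers, and the myc pair differs most, with 38 and 15.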

How the data were processed

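ATAC-seq reads of whole embryos were trimmed by the authors with Trimmomatic 0.36 and aligned with Bowtie2 2.3.4.1, and peaks were called with MACS2 2.1.2 per stage after merging replicates. Peaks above a −log q of 7 were merged over the stages by the authors. The deposited score was read as −log10 of the q value, and the deposited count of merged peaks as a whole number; the list has no header, and how the score of a merged element was made is not given in the sources used here. Replicates and stages are pooled, so no test was run. Depth per library is unknown. The intervals are taken over genes or elements as if these were independent, which members that share elements are not. They hold no replicate error.

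TF genes, families and coordinates were taken from the study's TF list. The TSS was the start on the plus strand and the end on the minus strand. Elements were assigned by midpoint within 50 kb. Names came from RefSeq genes (ASM223467v1, which gives no strand) chosen by the greatest overlap relative to the lengths of both models, for 67 members. For 36 they were TF names that the study listed beside TF binding motifs, and for 1 a RefSeq synonym. A TF name listed with a motif can fall on several genes, and several can fall on 1 gene, as in hes5/heyl. The symbols pfdn6 and pdlim1 were not used as names, since they belong to other families. Protein-coding RefSeq genes that do not overlap the member were its other genes, and elements at most 1 kb from the start or the end of such a gene were called near its end. Genes were named by rule: most and fewest elements overall and per role group, highest scores, members within 50 kb of each other, and classical family members, of which 1 is not reported here. neurod1, tcf24, IGDB01321, IGDB09035, tfap4, twist3 and other pair members were named after their values were seen. Members, role groups and lists were chosen with earlier results of these data known. The planned search for E-boxes was not run, since no sequences were used here. Counting was tested on simulated windows, and all 127 were recovered. Python 3.11.15, pandas 2.3.3, NumPy 2.4.6, SciPy 1.17.1 and Matplotlib 3.10.9 were used. Alternatives were other windows, score and peak minimums, joining of elements within 500 bp, placement by overlap, assignment to the closest TF gene, and other member or background sets.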

Additional observations from a re-analysis of the deposited data

How the results depend on the processing

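The 8 summary values were recomputed under 13 alternatives, 2 of them added after the data were seen. Of 97 values, 74 stayed within the 95% interval of the value reported and 23 did not. The median of 28 elements per gene was 16 in a 25 kb window and 52 in a 100 kb window, 15 with elements of at least the median score, 21 with elements of 2 or more peaks, 22 with neighbouring elements joined, 23 with each element given to the closest TF gene and 22 without elements near ends of other genes. The difference of 4 from the other TF genes kept its sign in all 13, ranged from 2 to 5 and was 2 without the zf-C2H2 genes. The share of members with an element within 1 kb was 84.3% with elements of at least the median score. The highest score within the window had a median of 275 at 25 kb, 474 at 100 kb and 255 without elements near other gene ends. The share within 5 kb of the TSS was 26.2% at 25 kb, 7.83% at 100 kb, 16.5% with the score minimum, 13.2% with joined elements, 17% with the closest TF gene and 16.3% without elements near other ends. The share from 9 or more peaks was 16.4% at 25 kb, 27% with the score minimum, 20.2% with elements of 2 or more peaks, 22.6% with joined elements and 9.82% without those near other ends, and the share upstream was 47% with the closest TF gene. More or fewer elements enter under these alternatives by construction, and the cause of the shifts in shares was not tested. No paired analysis was possible because the list pools the replicates, and for the same reason no replicate could be left out. Depth per library is unknown, so a gene without an element cannot be told apart from one below the peak threshold.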
